A study of Mus musculus with 28 samples.

Results

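The regions described here were the 4822 stretches of the mouse genome that carried acetylated histone H3 lysine 9 (H3K9ac) at day 4 of neural differentiation without crotonylated lysine 9 (H3K9cr) or lactylated lysine 18 (H3K18la) beside it. For each mark, the bases covered by the peaks of both day 4 replicates were taken, the resulting 3 sets were merged wherever they overlapped or touched, and a merged region was kept when it held H3K9ac only. The 4822 regions made up 10.1% of 47842 merged regions and 14.2% of the 33868 merged regions with H3K9ac. Of the other regions with H3K9ac, 18788 carried all 3 marks, 5756 carried H3K9ac and H3K9cr, and 4502 carried H3K9ac and H3K18la. H3K18la stood alone in 13825 regions and H3K9cr in 126.

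The cells were P19, an established mouse embryonal carcinoma line, and all groups came from this 1 line. Day 0 cells grew in proliferation medium without retinoic acid. Day 4 cells, labelled neural stem and progenitor cells, had received 1 µM retinoic acid from day 0, and day 8 cells had then been moved to neuronal medium. The day 2 groups all received retinoic acid as well. On day 1 they were given 1 µL of either DMSO, the solvent, or MS-275 from a stock at 10 mM; MS-275 inhibits class I histone deacetylases. At day 4 each mark had 2 native ChIP-seq libraries and there were 2 ATAC-seq libraries. At day 2 each mark had 1 ChIP-seq library with DMSO and 1 with MS-275, and RNA-seq had 2 libraries in each of 5 groups. The series text calls its replicates biological, and nothing in the sources used here says how the cultures were separated, so p-values measure the spread between these libraries.

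Acetylation of lysine 9 on histone H3 is placed by acetyltransferases, removed by histone deacetylases, and known as a mark of active promoters and enhancers. Crotonyl and lactyl groups sit on the same histone tail, are thought to be placed by some of the same enzymes from other acyl-CoA donors, and can be removed by class I deacetylases. ATAC-seq uses the Tn5 transposase, which inserts into DNA that nucleosomes leave accessible.

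Total estimated RNA counts lay between 18115738 and 19586107 per library. The labels were checked on the marker genes. Pou5f1, a core pluripotency factor, stood at 1418 ± 22.9 CPM (counts scaled to a common library size; SD, n = 2) at day 0 and 2.65 ± 0.488 CPM at day 4. Sox1, an early neural progenitor factor, stood at 1.78 ± 0.532 CPM at day 0 and 81.7 ± 5.44 CPM at day 4, and the neuronal tubulin Tubb3 stood at 69.6 ± 3.75 and 734 ± 5.40 CPM. How deeply the ChIP-seq and ATAC-seq libraries were sequenced is unknown here, since peak lists do not carry it, and a region without a peak is a region without a call.

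A small share of the regions lay at gene promoters, and the sequences upstream of 6 such starts are shown because their genes recur in the results below. Each is the run of 250 bases before a tabulated start of transcription, 5′ to 3′ on the strand of the gene, from RefSeq on GRCm38.p6. Every GC box (GGGCGG on either strand, the core letters of an Sp1-type site) is in capitals. They lie at chr4:134343216-134343465 on the plus strand for Slc30a2, chr1:135105277-135105526 on the minus strand for Lgr6, chr14:12345866-12346115 on the minus strand for Fezf2, chr1:180483505-180483754 on the minus strand for Stum, chr8:65037337-65037586 on the minus strand for Apela and chr16:34514028-34514277 on the minus strand for Kalrn. H3K9ac alone regions covered 239, 181, 140, 145, 79 and 250 of these bases, in the same order. A gene can have several starts, and only the Apela window lay wholly outside the span of its gene. The windows of Slc30a2, Fezf2 and Kalrn lay inside it and those of Lgr6 and Stum partly so. These windows can therefore hold sequence transcribed from another start.
Slc30a2: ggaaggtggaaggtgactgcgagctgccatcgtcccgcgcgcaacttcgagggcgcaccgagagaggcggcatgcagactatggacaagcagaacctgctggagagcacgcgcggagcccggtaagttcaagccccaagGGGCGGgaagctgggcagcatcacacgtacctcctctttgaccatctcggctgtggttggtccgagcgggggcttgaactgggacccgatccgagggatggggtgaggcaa
Lgr6: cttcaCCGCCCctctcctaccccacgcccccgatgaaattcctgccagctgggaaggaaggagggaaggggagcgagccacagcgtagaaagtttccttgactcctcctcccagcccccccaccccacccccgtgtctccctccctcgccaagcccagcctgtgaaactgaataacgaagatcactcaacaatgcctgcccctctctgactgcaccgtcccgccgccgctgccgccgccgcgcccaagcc
Fezf2: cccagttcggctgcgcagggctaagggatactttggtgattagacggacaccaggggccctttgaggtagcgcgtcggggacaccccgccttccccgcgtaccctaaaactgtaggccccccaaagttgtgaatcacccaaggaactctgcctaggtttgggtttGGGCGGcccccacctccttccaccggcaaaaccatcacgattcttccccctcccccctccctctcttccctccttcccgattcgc
Stum: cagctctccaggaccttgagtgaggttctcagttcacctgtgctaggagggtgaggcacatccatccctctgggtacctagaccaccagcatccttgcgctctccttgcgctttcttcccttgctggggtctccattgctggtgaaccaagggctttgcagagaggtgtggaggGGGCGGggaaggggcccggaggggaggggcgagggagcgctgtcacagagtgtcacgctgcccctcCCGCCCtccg
Apela: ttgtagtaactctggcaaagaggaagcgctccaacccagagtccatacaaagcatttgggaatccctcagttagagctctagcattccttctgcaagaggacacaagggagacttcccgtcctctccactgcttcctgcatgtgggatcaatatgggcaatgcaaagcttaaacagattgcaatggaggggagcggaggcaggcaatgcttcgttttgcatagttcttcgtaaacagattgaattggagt
Kalrn: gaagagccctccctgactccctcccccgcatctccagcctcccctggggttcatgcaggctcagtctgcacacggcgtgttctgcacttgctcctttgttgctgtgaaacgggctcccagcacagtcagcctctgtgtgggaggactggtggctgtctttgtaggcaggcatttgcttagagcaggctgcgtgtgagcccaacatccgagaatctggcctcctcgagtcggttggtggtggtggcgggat

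The Slc30a2 window held 20 CpG dinucleotides and 1 GC box, the Lgr6 window 16 and 1, the Fezf2 window 14 and 1, and the Stum window 9 and 2. The windows of Apela, with 5 CpG, and Kalrn, with 9 CpG, held no GC box. Over all promoters of 300 bases (250 before and 50 after the start) that H3K9ac alone regions overlapped and no other class did, 203 in number, the median GC content was 56.0% and the median CpG count 8. All 32851 tabulated promoters had medians of 52.7% and 7, and the 12086 promoters overlapped by regions with all 3 marks had medians of 62.0% and 22. By both medians the promoters under H3K9ac alone lay nearer to all tabulated promoters than to those under all 3 marks.

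Motif letters were searched on both strands of the 300 bases, and no motif searched is contained in another. GGGCGG was present in 42.9% of the 203 promoters, in 35.7% of all promoters, in 65.9% of those under all 3 marks and in 11.2% of those with no region of any class searched. The E-box letters CAGCTG, which fit many neural basic helix-loop-helix factors, were present in 18.2% of the 203 and 16.3% of all. AGGTCA, letters bound by nuclear receptors, was present in 14.8% and 16.3%, AACAAAG, Sox-type letters, in 2.96% and 5.85%, TGANTCA, the AP-1 letters, in 10.3% and 7.81%, and CCAAT, bound by NF-Y, in 32.5% and 37.4%. In promoters with no region of any class searched, the shares were 16.9% for CAGCTG, 20.5% for AGGTCA, 7.58% for AACAAAG, 10.8% for TGANTCA and 38.2% for CCAAT. These are shares of letters and were not tested.

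H3K9ac alone regions were narrow and weak. Their median width was 315 bases, with an interquartile range of 249 to 434, and they ran from 1 to 1786 bases. Regions with all 3 marks had a median width of 1988 bases, and those with H3K9ac and H3K9cr or with H3K9ac and H3K18la had medians of 852 and 814. These widths are of the whole merged region, over every mark in it. A region's fold enrichment is the highest among the H3K9ac peaks that overlap it, as the authors' ratio over the local background. A wider region can meet more peaks, and the part of this in the contrast was not tested. The median for H3K9ac alone regions was 4.48 in replicate 1 and 4.34 in replicate 2, against 36.3 and 34.5 for all 3 marks. With H3K18la beside H3K9ac the medians were 5.09 and 4.77, close to those of H3K9ac alone, and with H3K9cr they were 11.7 and 11.1. These peaks chose the regions, so width and strength are a description and carry no test.

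**Figure D1:**
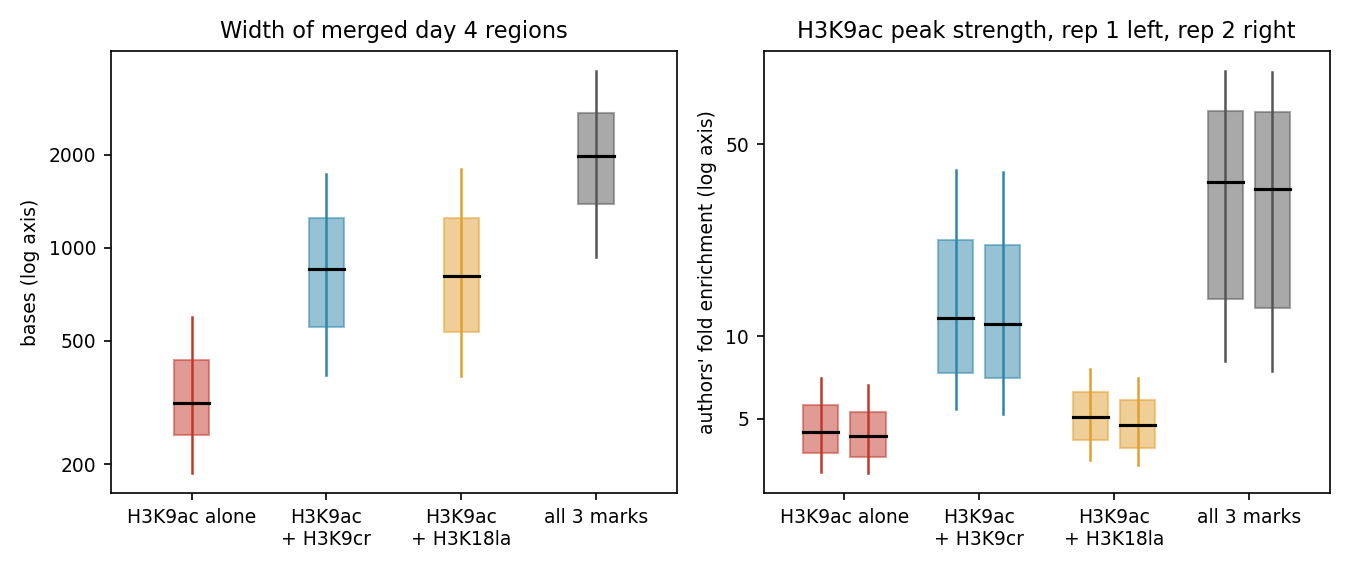
Width in bases (left, log axis) and the highest H3K9ac fold enrichment over each region in each day 4 replicate (right, log axis, authors' values) for 4 classes of merged regions. Boxes span the quartiles over regions, black lines are medians and whiskers run from the 10th to the 90th percentile; H3K9ac alone regions are the narrowest, with a median of 315 bases, and have median enrichments of 4.48 and 4.34.

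Alone is a statement at the rule's threshold. An H3K9cr peak in at least 1 of the 2 replicate lists overlapped 1780 regions (36.9%), and an H3K18la peak did so for 1979 (41.0%). Together, 3075 regions (63.8%) met a peak of the other marks in some day 4 list, and 1747 (36.2%) met none. The single-replicate peaks were weak, with median fold enrichments of 4.16 and 4.15 for H3K9cr and 3.86 and 3.68 for H3K18la in replicates 1 and 2. The 1747 regions free of any such peak were slightly narrower, with a median of 284 bases against 340 for the other 3075, and their H3K9ac medians were 4.24 and 4.09 against 4.71 and 4.54.

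At the edge of the rule, 14 regions lay within 100 bases of the shared H3K9cr set, with median H3K9ac enrichments of 5.79 and 4.65, and 29 regions that held H3K9cr over at most 100 bases fell just outside the rule with 4.80 and 5.29. For H3K18la, 149 regions lay within 100 bases with medians of 4.53 and 4.29, and 40 regions with at most 100 bases of that mark had 4.72 and 4.46. Both replicate summits of H3K9ac lay inside 3567 regions (74.0%), and 239 regions (4.96%) held no summit. For 719 regions (14.9%) the H3K9ac peak itself ran on into a region of another class, so the fold enrichment there belongs to a longer peak. Without those 719, the highest fold enrichments were 25.7 in replicate 1 and 22.7 in replicate 2.

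Among the 12 regions with the highest enrichment in the weaker replicate, 3 held no summit, and their peaks reached a neighbouring region. They were the regions at the start of Tbl1xr1 (chr3:22076718-22076787), inside Ntn3 (chr17:24207530-24207696) and at the start of Bmf (chr2:118547620-118547954). The others held both summits. A region at the start of Gon4l (chr3:88835829-88836063) had enrichments of 22.9 and 22.7, and one inside 1500004A13Rik (chr3:88831074-88831312) lay 288 bases from a region of another class with 22.9 and 21.1. A region at the start of Snrpn within Snhg14 (chr7:60449894-60450132), an imprinted locus, had 25.7 and 20.2, and another region of that locus (chr7:60216596-60217202) had 16.0 and 15.6. All 4 met an H3K9cr peak in replicate 1 only.

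Outside genes, the strongest region was chr10:57743679-57743941, 41113 bases from the start of Fabp7, a fatty acid binding protein of radial glia, with enrichments of 18.9 and 18.8. Next came chr8:67431339-67431625, 525336 bases from the nearest tabulated start, with 18.4 and 16.6. Both were open in both ATAC-seq replicates, and both met an H3K9cr peak in replicate 1 only. The other 4 open regions far from starts that the rule named had enrichments of 10.0 to 15.8. They were chr12:98674791-98675029, chr1:170901818-170902211 and chr14:54449243-54449494 outside genes, and chr3:116903980-116904297 inside Frrs1, the last with no H3K9cr or H3K18la peak in any day 4 list.

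The 3 widest regions were 1786, 1746 and 1600 bases long. The widest (chr11:18989234-18991019) lay inside Meis1, a homeobox cofactor of the retinoic acid response, at the start of the transcript Gm16141, and had enrichments of 6.63 and 8.40. It was open in both ATAC-seq replicates and met H3K9cr and H3K18la peaks in replicate 2 only, and no day 2 list had a peak there. The others lay at the start of Ankrd63 (chr2:118702657-118704402) and inside Det1 (chr7:78826497-78828096).

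Most H3K9ac alone regions lay away from gene starts. Of the 4655 regions on chromosomes with tabulated starts, 399 (8.57%) overlapped a window of 1000 bases either side of a start. The share was 52.7% for all 3 marks, 46.9% for H3K9ac and H3K9cr and 5.97% for H3K9ac and H3K18la. Inside genes but away from starts lay 2813 regions (60.4%), outside genes 1312 (28.2%), and at an end of a gene with no tabulated start 131 (2.81%). The median distance from a region's midpoint to the nearest tabulated start was 18564 bases, against 1320 for all 3 marks, 2714 with H3K9cr and 24202.5 with H3K18la. With width held to 200 to 500 bases the shares at starts were 9.11% for H3K9ac alone, 26.4% with H3K9cr, 6.63% with H3K18la and 18.4% for all 3 marks. Counting either end of any gene in the gene table, which covers genes without a tabulated start, raised the share of H3K9ac alone regions to 13.9%.

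**Figure D2:**
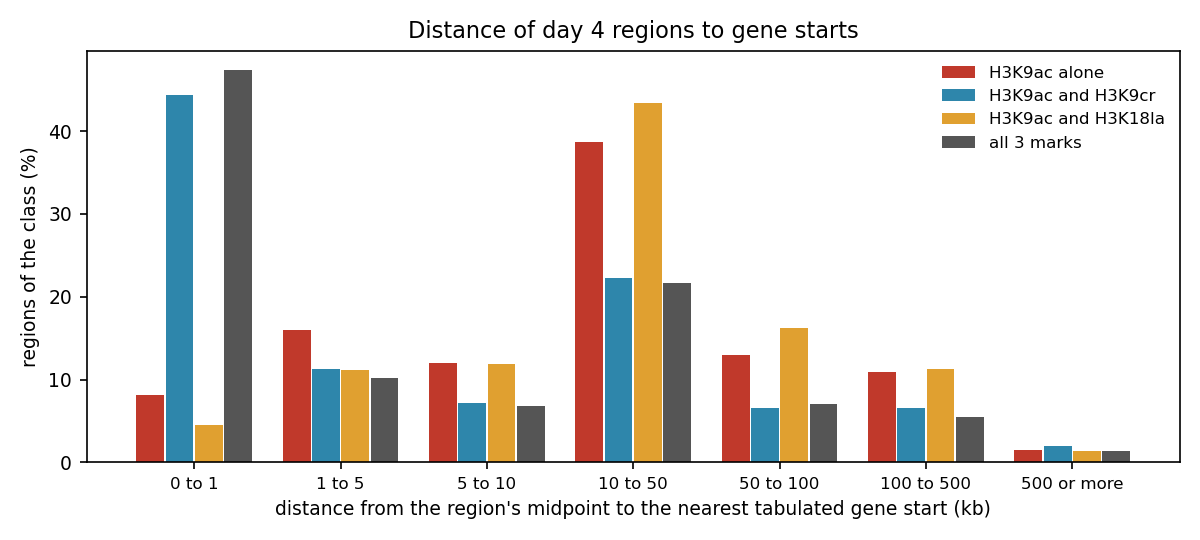
Share of the regions of a class (vertical axis, percent) by the distance from the midpoint of a region to the nearest tabulated gene start (horizontal axis, kilobases). H3K9ac alone regions and those with H3K18la are most often 10 to 50 kb away, at 38.7% and 43.4%, while 47.3% of regions with all 3 marks lie within 1 kb.

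Many of the regions had a near neighbour. The gap to the nearest region of another class had a median of 4572.5 bases, and 1520 regions (31.5%) lay within 1000 bases of one. Regions with H3K18la alone were that near for 670 of them (13.9%) and regions with all 3 marks for 548 (11.4%). A larger share of regions with H3K9ac and H3K18la, 48.8%, had another region within 1000 bases, and the share was 20.3% for all 3 marks. H3K9ac alone regions occurred on every chromosome with H3K9ac regions. On the autosomes and the X they made up between 12.5% of the H3K9ac regions (chromosome 11) and 15.8% (chromosome 1).

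Few of these regions were open. An ATAC-seq peak overlapped 691 regions (14.3%) in replicate 1 and 481 (9.98%) in replicate 2, and 277 (5.74%) were covered in both. In both replicates together the share was 64.5% for all 3 marks, 41.1% for H3K9ac and H3K9cr and 10.9% for H3K9ac and H3K18la. At 200 to 500 bases wide the shares were 5.68% for H3K9ac alone, 19.98% with H3K9cr, 6.54% with H3K18la and 20.2% for all 3 marks. Far from starts, at 10000 bases or more, 6.88% of H3K9ac alone regions were open, against 50.1% for all 3 marks. Where an ATAC-seq peak was present, its median fold enrichment was 6.07 and 5.99 in H3K9ac alone regions and 7.87 and 7.73 in regions with all 3 marks. H3K9ac alone regions also had the weakest H3K9ac peaks of the 4 classes, and the part of peak strength in these shares was not tested.

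At day 2 in DMSO most of the later H3K9ac alone regions had no call. An H3K9ac peak overlapped 997 of them (20.7%), an H3K9cr peak 786 (16.3%) and an H3K18la peak 803 (16.7%), and 3402 (70.6%) met none of the 3. The day 2 H3K9ac share was 84.3% for all 3 marks, 75.1% with H3K9cr and 21.4% with H3K18la. With width held to 200 to 500 bases it was 20.4% for H3K9ac alone, 47.5% for all 3 marks, 48.2% with H3K9cr and 18.5% with H3K18la. Where H3K9ac was already called in DMSO it was often accompanied, since 63.2% of the 997 also had H3K9cr and 50.5% also had H3K18la. Of the 4822, 226 (4.69%) had H3K9ac and neither other mark in DMSO. The day 2 lists hold 1 library each, so none of these shares has a test.

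With MS-275 at day 2 the regions were far more often covered by H3K9ac and H3K9cr. An H3K9ac peak overlapped 3169 (65.7%) and an H3K9cr peak 2679 (55.6%), while an H3K18la peak overlapped 385 (7.98%). An H3K9ac peak in the MS-275 list but not in the DMSO list met 2242 regions (46.5%), the reverse held for 70 (1.45%), and 927 (19.2%) met both. For H3K9cr the corresponding counts were 1978, 85 and 701, and for H3K18la they were 234, 652 and 151. The MS-275 H3K9ac list covered 122 Mb of the genome and the DMSO list 34.2 Mb. For H3K9cr the lists covered 107 and 32.5 Mb, and for H3K18la 16.3 and 26.8 Mb. An H3K9ac peak with MS-275 only met 44.7% of H3K9ac and H3K18la regions and 39.1% of H3K18la alone regions. It met 17.6% of H3K9ac and H3K9cr regions and 10.8% of regions with all 3 marks. A DMSO H3K9ac peak already met 75.1% of H3K9ac and H3K9cr regions and 84.3% with all 3 marks, leaving fewer to gain one. Any MS-275 H3K9ac peak met 94.4% of regions with all 3 marks, 90.2% with H3K9cr, 64.0% with H3K18la and 43.1% of H3K18la alone. At 200 to 500 bases wide the shares were 65.8% for H3K9ac alone, 80.1% with H3K9cr, 62.1% with H3K18la and 84.3% for all 3 marks. The part of list breadth in the shares was not tested.

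**Figure D3:**
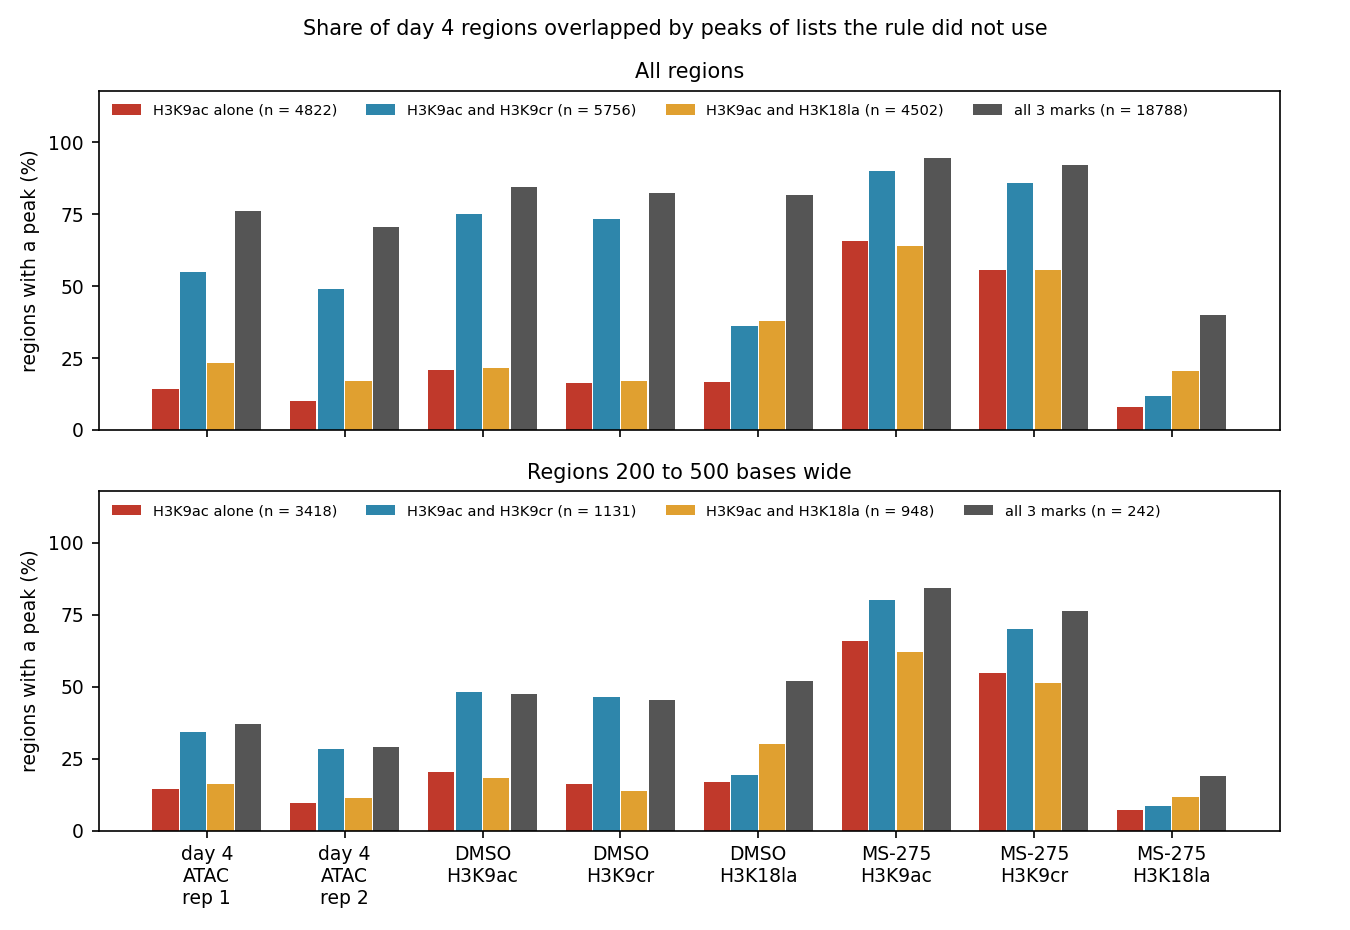
Share of regions overlapped by a peak (vertical axis, percent) in the 2 day 4 ATAC-seq lists and the 6 day 2 ChIP-seq lists, for all regions (top) and for regions 200 to 500 bases wide (bottom), with colours for 4 classes. H3K9ac alone regions stand at 14.3% and 9.98% for ATAC-seq, 20.7% for H3K9ac in DMSO and 65.7% for H3K9ac with MS-275.

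The MS-275 peaks over these regions were broad. Their median width was 1675 bases for H3K9ac and 1663 for H3K9cr, against 487 and 510.5 for the peaks in DMSO, and their median fold enrichments were 6.28 and 6.35. The H3K9ac peaks with MS-275 were about as wide or wider over the other classes. Their medians were 1670 bases over H3K9ac and H3K18la regions, 1733 with H3K9cr, 1950 for H3K18la alone and 2659.5 for all 3 marks. Of the 3169 regions with H3K9ac in MS-275, 81.4% also had H3K9cr and 12.1% also had H3K18la. The H3K9cr share was 83.9% for H3K9ac and H3K18la regions, 80.8% for H3K18la alone, 94.0% for H3K9ac and H3K9cr and 97.2% for all 3 marks. H3K9ac with H3K9cr and without H3K18la was the commonest state with MS-275, in 2206 regions (45.7%), and no mark was called in 1551 (32.2%). That state held for 34.4% of H3K9ac and H3K18la regions, 22.4% of H3K18la alone, 73.1% of H3K9ac and H3K9cr and 52.3% of all 3 marks.

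At gene starts, H3K9ac alone regions overlapped the windows of 414 genes, and for 220 of these no region of another class did. Of the 220, 131 were protein coding and 89 were long noncoding RNA genes. The RNA table held 165 of them. RNA from most was scarce at day 4. Only 35 and 31 of the 165 (21.2% and 18.8%) reached 1 CPM in the day 4 libraries, 50 and 48 did at day 0, 36 and 35 in DMSO, 68 and 66 with MS-275 and 45 and 45 at day 8. In the day 4 libraries, 89.0% and 88.8% of the genes that start under all 3 marks and 5.55% and 5.64% of the genes with no region at their start reached 1 CPM, a scale not adjusted for transcript length.

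The low-count filter kept 100 of the 165 genes. A scarce gene that is kept only for its level in 1 group has to differ between groups, so the counts that follow describe the kept genes only. The tested genes had their lowest mean at day 4 in 30 of 100 cases and their highest in 9, and among all 17789 genes tested the shares were 15.6% and 15.5%. Tested genes with no region at their start had shares of 23.4% and 10.3%, and those with H3K9ac and H3K9cr there 24.0% and 8.76%. The highest mean was with MS-275 in 44 of 100, beside 23.2% of all genes tested and 37.1% of tested genes with no region at their start.

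Day 4 against day 0 asked how these genes changed as the regions' cells formed. Of the 100, 28 were higher and 37 lower at day 4 (edgeR quasi-likelihood test, Benjamini-Hochberg adjusted p under 0.05), where 36.2% of all tested genes were higher and 36.1% were lower. The median log2 difference was −0.31, and it was 0.01 over all genes tested. It was −0.43 for tested genes with no region at their start, of which 20.6% were higher and 38.4% lower, and −0.26 for those with H3K9ac and H3K9cr there. In bulk RNA, fewer cells of a type and less RNA per cell cannot be told apart.

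The genes that fell included regulators of the early embryo. Tdgf1, the Nodal co-receptor Cripto, read 120.1 and 125 CPM at day 0 and 0.158 and 0.389 CPM at day 4, with an edgeR adjusted p of 9.97e-17. Its region (chr9:110947075-110947310, enrichments 3.98 and 3.67) had H3K9ac and H3K9cr in both day 2 conditions and met no ATAC-seq peak. The day 0 libraries stood above every other library for this gene, and the log2 difference ran from −9.59 to −8.33 when 1 library was left out.

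Eomes, a T-box factor of the primitive streak and endoderm, read 9.72 and 9.53 CPM at day 0, 0.890 and 0.853 in DMSO, 6.98 and 5.82 with MS-275, 0.525 and 0.333 at day 4 and 7.60 and 9.69 at day 8. It was high at both ends of the time course and low at day 2 in DMSO and at day 4. The log2 difference was −4.46 ± 0.282 (SE; edgeR adjusted p = 2.93e-10) at day 4 against day 0 and 4.30 ± 0.284 (edgeR adjusted p = 3.30e-09) at day 8 against day 4. In all, 3 H3K9ac alone regions lay at its start, the longest at chr9:118476643-118477814 with enrichments of 5.66 and 6.13, and all 3 had H3K9ac and H3K9cr in both day 2 conditions. The noncoding gene Gm33408 starts there too, and whether counting used strand is not stated in the labels or headers.

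Apela, the ligand ELABELA of the apelin receptor, read 8.88 and 10.04 CPM at day 0, 1.41 and 1.59 in DMSO, 9.91 and 9.51 with MS-275, 0.262 and 0.278 at day 4 and 2.79 and 1.91 at day 8. The day 4 libraries were the lowest of the 10. The fall to day 4 had a log2 of −5.10 ± 0.308 (SE; edgeR adjusted p = 1.58e-10). Unlike those of Tdgf1 and Eomes, its region (chr8:65036816-65037415, enrichments 5.42 and 7.26) was open in both ATAC-seq replicates. Like the Tdgf1 region, the Apela region met no H3K9cr or H3K18la peak in any day 4 list.

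Jph2, a junctophilin of muscle membranes, read 6.94 and 5.16 CPM at day 0 and 0.105 and 0.0555 at day 4, where it had 3 counts in all. Its day 0 level was 75.05 times that of day 4, with a 95% counting interval of 25.4 to 366.7 (edgeR adjusted p = 5.37e-09). Phyhd1, a phytanoyl-CoA dioxygenase domain protein, read 8.09 and 6.39 CPM at day 0 and 0.840 and 0.278 CPM at day 4 (edgeR adjusted p = 9.89e-08). Both of these genes were lower in each day 4 library than in each day 0 library.

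Only 4 rises met the naming rule. Kalrn, a guanine nucleotide exchange factor of neurons, read 5.57 and 6.06 CPM at day 0, 47.2 and 44.9 in DMSO, 15.6 and 16.6 with MS-275, 207 and 196.6 at day 4 and 195 and 180.3 at day 8. Its day 4 rise had a log2 of 5.12 ± 0.0876 (SE; edgeR adjusted p = 1.85e-17). The region at its tabulated start (chr16:34513920-34514324, enrichments 5.82 and 4.83) had no ATAC-seq peak and no peak in any day 2 list, and starts of Kalrn that are not tabulated were not assessed.

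Col6a1, a chain of collagen VI, read 3.73 and 4.66 CPM at day 0, 20.8 and 20.1 at day 4 and 69.4 and 74.2 at day 8 (log2 2.29 ± 0.123 for day 4 against day 0, edgeR adjusted p = 3.55e-11). Spef1, a microtubule protein of cilia and flagella, read 1.89 and 4.21 CPM at day 0 and 18.4 and 19.4 at day 4 (edgeR adjusted p = 6.91e-09). Rtl8a read 7.30 and 4.54 CPM at day 0 and 18.3 and 18.4 at day 4 (log2 1.62 ± 0.162, edgeR adjusted p = 1.08e-07); it has near-identical family members, between which the authors' counting could split reads. All 4 genes were higher in each day 4 library than in each day 0 library.

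**Figure D4:**
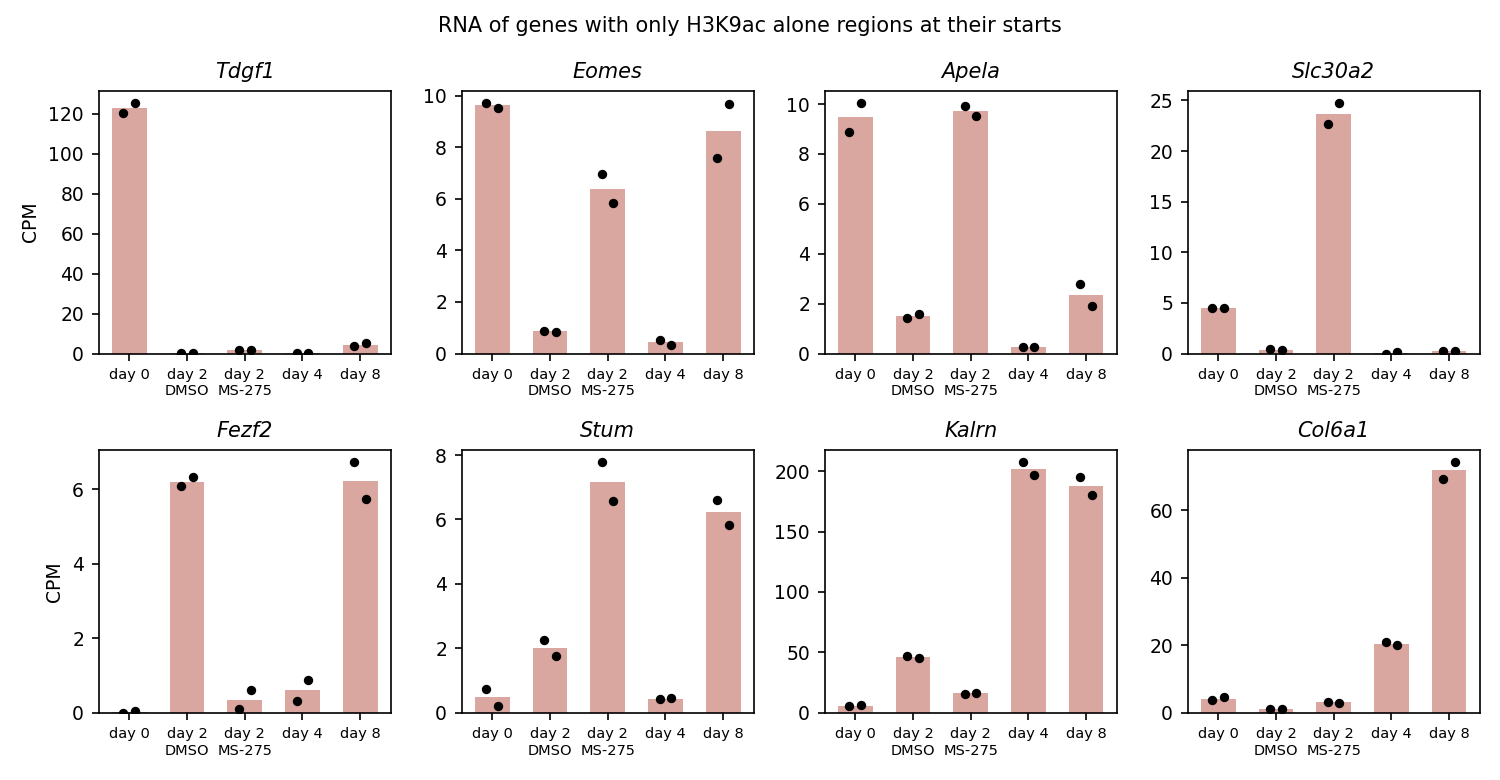
RNA level in CPM (vertical axes, each from 0) of 8 genes whose tabulated starts met H3K9ac alone regions and no other class, in the 5 groups. Points are the 2 libraries and bars their mean. Tdgf1, Eomes, Apela, Slc30a2, Fezf2 and Stum lie under 1 CPM in both day 4 libraries, while Kalrn reaches 207 and 196.6 CPM.

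Day 8 against day 4 asked what became of these genes in the neuronal medium. Of the 100, 29 were higher and 8 lower at day 8, where 21.7% of all tested genes were higher and 19.8% were lower. Among tested genes with no region at their start the shares were 20.4% and 8.75%. The 2 comparisons share the day 4 libraries, so a low day 4 value moves both. Besides Eomes, the rule named 4 rises and no fall.

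Fezf2, a zinc finger factor of forebrain neurons, read 0 and 0.0561 CPM at day 0, 6.07 and 6.31 in DMSO, 0.0991 and 0.597 with MS-275, 0.315 and 0.889 at day 4 and 6.72 and 5.72 at day 8 (edgeR adjusted p = 1.02e-05 for day 8 against day 4). It was present at day 2 in DMSO and at day 8 and near 0 between them. At its start lay 2 H3K9ac alone regions (chr14:12345738-12346005 and chr14:12346326-12346915), and both already had H3K9ac and H3K9cr in both day 2 conditions. The enrichments of the longer one were 4.55 and 3.94.

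Stum read 0.420 and 0.444 CPM at day 4 and 6.62 and 5.83 at day 8 (log2 3.83 ± 0.365, edgeR adjusted p = 2.80e-07). Lingo2, a neuronal leucine-rich repeat membrane protein, read 0.735 and 0.944 CPM at day 4 and 7.60 and 8.69 at day 8 (log2 3.27 ± 0.352, edgeR adjusted p = 1.87e-06). The Lingo2 region (chr4:35844916-35845079) lay inside the gene's span of chr4:35696778-36951744, and starts of Lingo2 that are not tabulated were not assessed. Col15a1, a basement membrane collagen, read 1.58 and 0.944 CPM at day 4 and 7.81 and 5.40 at day 8 (log2 2.38 ± 0.333, edgeR adjusted p = 2.21e-05). The regions of these genes differed in history. The Stum region had peaks of H3K9ac and H3K9cr in both day 2 conditions, while those of Lingo2 and Col15a1 had a peak in no day 2 list.

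MS-275 against DMSO asked how the deacetylase inhibitor changed the same genes at day 2. Of the 100, 55 were higher with MS-275 and 11 lower, where 31.9% of all tested genes were higher and 31.4% were lower. Among tested genes with no region at their start 45.3% were higher and 8.82% lower. Among those starting under all 3 marks 27.9% were higher and 41.3% lower. The shares were 71.4% and 2.04% for starts under H3K18la alone (49 genes tested) and 70.0% and 5.0% for H3K9ac and H3K18la (20 tested). For H3K9ac and H3K9cr they were 48.3% and 19.5%. The differences between these groups were not tested.

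Slc30a2, a zinc transporter, read 0.419 and 0.341 CPM in DMSO and 22.6 and 24.7 with MS-275 (log2 5.93 ± 0.287, edgeR adjusted p = 3.94e-11), and 0 and 0.167 at day 4. Lgr6, a receptor for R-spondins, read 0.209 and 0.228 CPM in DMSO and 11.2 and 7.81 with MS-275 (log2 5.40 ± 0.533, edgeR adjusted p = 1.83e-07). Plk5, a polo-like kinase family member, read 1.36 and 0.682 CPM in DMSO and 37.1 and 28.8 with MS-275 (edgeR adjusted p = 4.21e-11). The regions at these 3 starts all had H3K9ac and H3K9cr peaks in both day 2 conditions.

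Nr5a2, a nuclear receptor of the early embryo, read 0.314 and 0.114 CPM in DMSO and 5.65 and 6.22 with MS-275 (edgeR adjusted p = 3.02e-07). Ttll6, a tubulin polyglutamylase, had 1 count in DMSO and read 10.0 and 8.96 CPM with MS-275, a ratio of 347.9 with a 95% counting interval of 62.1 to 13780 (edgeR adjusted p = 3.49e-08). Its log2 difference ran from 7.32 to 10.48 when 1 library was left out. Its region (chr11:96133276-96133578) had no peak in any DMSO list and peaks of all 3 marks with MS-275. That region lay inside the gene's span of chr11:96124457-96166182, and starts of Ttll6 that are not tabulated were not assessed. These genes were higher in each MS-275 library than in each DMSO library.

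The rule named 3 falls. Foxe3, a forkhead factor of the lens, read 6.28 and 7.68 CPM in DMSO and 0.198 and 0.348 with MS-275 (log2 −4.64 ± 0.499, edgeR adjusted p = 1.35e-06), and was at 0 in both day 4 libraries. Fezf2 fell with MS-275 (edgeR adjusted p = 1.08e-06), and so did Kalrn (log2 −1.52 ± 0.0786, edgeR adjusted p = 8.40e-11). The Foxe3 and Fezf2 starts carried H3K9ac and H3K9cr peaks in both day 2 conditions, and in each MS-275 library the RNA of both read under 1 CPM.

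Most regions lay inside genes, and 2710 genes held at least 1. Of these, 2075 held 1 region, 447 held 2 and 188 held 3 or more, up to 13. Genes holding at least 2 numbered 635, and 568 of them passed the low-count filter. At day 4 against day 0, 362 of the 568 were higher (63.7%) and 129 lower (22.7%), with a median log2 difference of 0.73. The share that was higher was 34.9% for genes with no H3K9ac alone region, 45.5% with 1, 60.3% with 2 and 71.1% with 3 or more. The medians ran from −0.06 through 0.17 and 0.62 to 1.16.

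**Figure D5:**
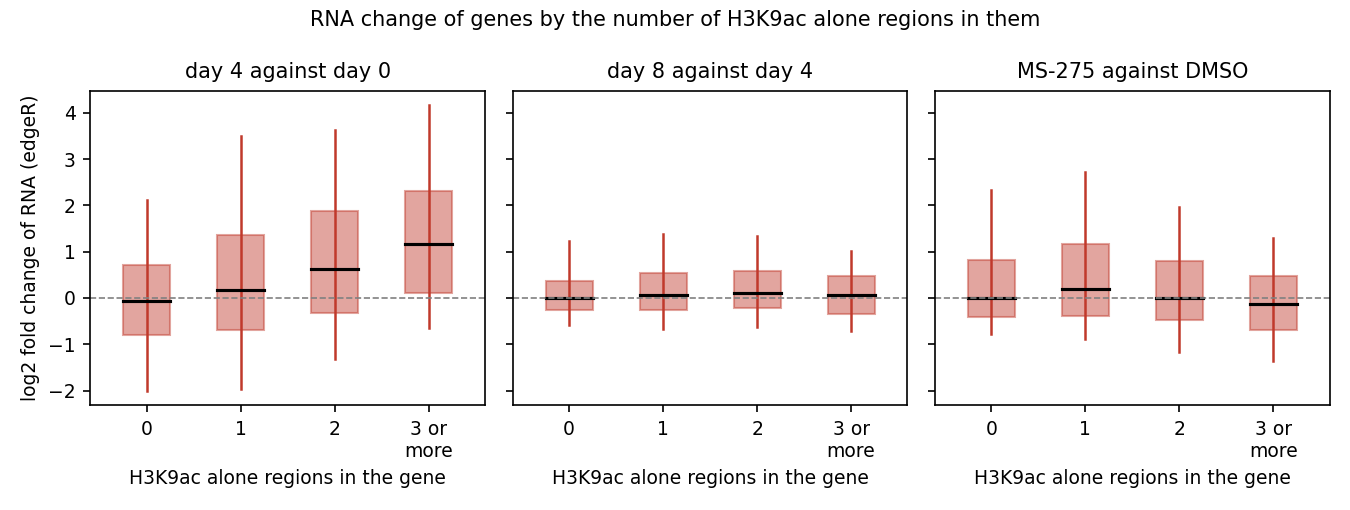
Log2 fold change of RNA (vertical axis) for genes grouped by how many H3K9ac alone regions lie in them (horizontal axis), in 3 comparisons. Boxes span the quartiles over genes, black lines are medians and whiskers run from the 10th to the 90th percentile; the day 4 against day 0 median moves from −0.06 with no region to 1.16 with 3 or more, and in the other comparisons all medians lie between −0.12 and 0.20.

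Long genes offer more room for a region. The 568 genes had a median length of 131593 bases, and all genes of the table that were tested had 23392. Among genes of 100000 bases or more, the share that was higher at day 4 was 46.4% with no region, 55.9% with 1, 66.7% with 2 and 69.1% with 3 or more. Genes holding at least 2 regions of other classes were also more often higher than the 36.2% of all tested genes: 63.1% for H3K9ac and H3K18la, 55.1% for H3K18la alone, 54.1% for all 3 marks and 46.0% for H3K9ac and H3K9cr. At day 8 against day 4, 227 of the 568 were higher (39.96%) and 144 lower (25.4%), beside 21.7% and 19.8% of all tested genes. With MS-275, 217 were higher (38.2%) and 219 lower (38.6%), beside 31.9% and 31.4%. Among genes of 100000 bases or more, the share higher at day 8 was 42.3% with no region and 41.9% with 3 or more. It was 41.2% with 1 and 40.8% with 2. The share lower was 17.9% with no region and 28.7% with 3 or more. With MS-275, 38.99% of such long genes with no region were higher and 28.8% lower, against 33.1% and 47.1% with 3 or more.

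The gene that held most regions was Arid1b, a subunit of the BAF chromatin remodelling complex, with 13 over 353360 bases. Its RNA read 119.9 and 114 CPM at day 0, 142 and 146 in DMSO, 49.4 and 60.4 with MS-275, 191 and 200.7 at day 4 and 188 and 172 at day 8. The levels rose by a log2 of 0.74 ± 0.0753 to day 4 (SE; edgeR adjusted p = 1.36e-07) and fell with MS-275 by 1.39 ± 0.0795 on the log2 scale (edgeR adjusted p = 2.68e-10). Of its 13 regions, none had H3K9ac in DMSO at day 2, 7 had it with MS-275, and 6 met no H3K9cr or H3K18la peak in any day 4 list.

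Zfhx3, a zinc finger homeobox factor of neurons, held 9 regions and read 79.7 and 72.1 CPM at day 0 and 185 and 186 at day 4 (log2 1.29 ± 0.0629, edgeR adjusted p = 9.60e-12). Maml3, a Notch coactivator, held 9 and read 23.8 and 25.96 CPM at day 0 and 93.6 and 91.9 at day 4 (log2 1.90 ± 0.0765, edgeR adjusted p = 7.20e-13). Zfhx3 differed from Arid1b at day 2: 5 of its 9 regions had H3K9ac in DMSO and 8 with MS-275.

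Mecom, a zinc finger factor with a PR domain, held 8 regions and read 4.68 and 5.05 CPM at day 0, 55.3 and 59.6 in DMSO, 34.5 and 33.8 at day 4 and 7.18 and 7.31 at day 8 (log2 2.81 ± 0.103 for day 4 against day 0, edgeR adjusted p = 2.04e-13). Ttc28 held 8 and read 15.3 and 14.5 CPM at day 0, 62.1 and 61.9 at day 4 and 131.5 and 120.3 at day 8 (log2 2.06 ± 0.0816, edgeR adjusted p = 5.83e-13). These 5 genes also held regions with all 3 marks, from 3 in Mecom to 18 in Maml3. In the day 4 against day 0 comparison the libraries of both groups did not overlap for any of the 5.

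The regions were also counted in the genes of 17 lists, beside the 2710 of 34614 genes in the gene table that held at least 1. Length differs between lists: among genes of 100000 bases or more, 559 held 1 region, 214 held 2, 142 held 3 or more and 1795 held none. In the neuron list, 11 of 30 genes held 24 regions, and all 11 were higher at day 4, where 28 of the whole list were. In the neural stem and progenitor list, 7 of 29 genes held 11 regions and all 7 were higher, where 26 of the list were. In the axon guidance and cell adhesion list, 23 of 40 genes held 38 regions, with 21 higher and 2 lower, where 37 of the list were higher and 3 lower, and the median length of its genes was 277385 bases. In the retinoic acid response list, 6 of 25 genes held 16 regions and all 6 were higher, where 17 of the list were higher and 3 lower. In these 4 lists the holders moved mostly as the whole list did, and the lists were not independent of earlier results of these data.

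Among the neural holders, Pax3, a factor of the dorsal neural tube and neural crest, held 4 regions and had no counts at day 0 and 190.1 and 181 CPM at day 4, at least 2279-fold higher when the day 0 group is set to 3 counts in all (edgeR adjusted p = 1.22e-16). Sox9, a factor of neural stem cells, held 1 and read 1.37 and 1.91 CPM at day 0 and 115 and 111 at day 4 (log2 6.11 ± 0.115, edgeR adjusted p = 4.84e-17). Notch1, the receptor that maintains neural progenitors, held 1 and read 29.7 and 27.7 CPM at day 0 and 527 and 533 at day 4 (log2 4.21 ± 0.0692, edgeR adjusted p = 1.33e-17). All 3 were higher in each day 4 library than in each day 0 library.

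Of the neuron list, Ebf2, an early B-cell factor of differentiating neurons, held 3 regions, had 2 counts at day 0 and read 78.3 and 71.5 CPM at day 4, a ratio of 1383 with a 95% counting interval of 382.5 to 11420 (edgeR adjusted p = 7.57e-17). Dcx, the doublecortin of migrating neurons, held 1 and read 0.946 and 0.561 CPM at day 0 and 496 and 451 at day 4 (log2 9.27 ± 0.116, edgeR adjusted p = 9.36e-19). Ebf1 with 6, Ncam1 with 4 and Map2 with 3 regions were the other genes of the list that held at least 3.

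Of the retinoic acid list, Meis2 held 5 regions and read 2.26 and 2.41 CPM at day 0 and 214 and 221 at day 4 (log2 6.54 ± 0.0822, edgeR adjusted p = 9.36e-19). Meis1 held 4 and read 1.05 and 0.897 CPM at day 0 and 318 and 332 at day 4 (log2 8.37 ± 0.0918, edgeR adjusted p = 3.66e-19). Rarb, a retinoic acid receptor and a classic target of its own ligand, held 3 and read 1.58 and 0.897 CPM at day 0 and 139 and 142 at day 4 (log2 6.81 ± 0.155, edgeR adjusted p = 4.81e-16). In the day 2 DMSO group these genes were already at 235 and 240.0 CPM (Meis2), 285 and 291 (Meis1) and 77.1 and 77.3 (Rarb).

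Axon guidance receptors that held regions included Nrp2, the semaphorin co-receptor, with 2 regions and 1.73 and 2.30 CPM at day 0 against 469 and 473 at day 4 (log2 7.87 ± 0.117, edgeR adjusted p = 3.96e-18). Epha3, an ephrin receptor, held 1 and read 0.736 and 0.393 CPM at day 0 and 178 and 166 at day 4 (log2 8.22 ± 0.191, edgeR adjusted p = 6.13e-16). Ephb2, with 6 regions, held the most of the list. In the synapse and ion channel list 9 of 34 genes held 12 regions, with 8 higher and 1 lower, where 25 of the list were higher and 8 lower. In the histone acylation list 6 of 36 held 11, with 3 higher and 3 lower, where 16 of the list were higher and 14 lower.

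Some holders were lower at day 4. The lower gene of the synapse list was Cacna1a, a calcium channel subunit, with 30.4 and 28.4 CPM at day 0 and 14.2 and 12.5 at day 4 (log2 −1.14 ± 0.122, edgeR adjusted p = 2.80e-07). In the Wnt and Fgf list 4 of the 6 holders were lower, where 15 of the 35 listed genes were higher and 14 lower. The lower holders included Tcf7l1, a repressor of Wnt targets, with 207 and 203 CPM at day 0 and 29.9 and 34.2 at day 4 (log2 −2.68 ± 0.0891, edgeR adjusted p = 5.71e-14). Slc1a3, a glial glutamate transporter, held 1 region and read 286 and 269 CPM at day 0 and 32.4 and 38.2 at day 4 (log2 −2.98 ± 0.0792, edgeR adjusted p = 3.24e-15). The other holder of the astrocyte and oligodendrocyte list, the myelin gene Mbp, read 10.25 and 8.47 CPM at day 0 and 44.1 and 45.05 at day 4 (log2 2.25 ± 0.102, edgeR adjusted p = 3.53e-12). Among the acylation genes, Mllt3, whose YEATS domain reads acylated lysines, held 4 and rose from 8.30 and 7.85 to 164 and 153 CPM (log2 4.29 ± 0.0933, edgeR adjusted p = 2.79e-16). The deacetylase Hdac4 held 1 and fell from 80.4 and 75.5 to 48.8 and 45.3 CPM (log2 −0.73 ± 0.094, edgeR adjusted p = 2.58e-06).

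Markers of other cell types were examined in the same way. In the fibroblast and mesenchyme list 5 of 20 genes held 9 regions, all 5 of them higher at day 4, and in the neural crest list 4 of 15 held 5, with 3 higher and 1 lower. Both lists moved beyond their holders: 15 fibroblast genes of 20 tested were higher and 3 lower at day 4, and 10 neural crest genes of 15 were higher and 3 lower. The summed level of the fibroblast list was 735 to 741 CPM at day 0 and 1996 to 2144 at day 4, and that of the neural crest list 104 to 105 CPM and 519 CPM in both libraries. At day 0 Lum was the fibroblast gene with no count, and at day 4 every gene of the 2 lists had counts. In the pluripotency list 1 of 25 genes, Tbx3, held a region, and Tdgf1 had one at its start. Primitive streak and endoderm genes held 5 regions in 2 of 16 genes, cardiac and muscle genes 2 regions in 1 of 15, and astrocyte and oligodendrocyte genes 2 regions in 2 of 15. The Notch list had 4 holders of 24 with 15 regions, 9 of these in Maml3. Of the 4 holders 3 were higher, where 17 of the list were higher and 3 lower. No Hox gene (27 listed), ribosomal protein gene (25) or DNA replication and mitosis gene (29) held a region. Their median gene lengths were 3815, 3709 and 16234 bases, against 131593 bases for the 568 tested genes with at least 2 regions. The part of other cell types in the day 4 values was not tested.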

How the data were processed

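RNA-seq, native ChIP-seq and ATAC-seq of P19 cells were analysed, 10 RNA libraries and 14 peak lists. The authors deposited estimated counts per gene (Salmon 1.1.0, per the submitters' processing notes), and these were rounded to whole numbers. Each deposited peak list, with MACS2 column names per the file headers, gives the position of each peak, its fold enrichment (the authors' ratio over the local background), its −log10 q-value and −log10 p-value, and a pileup signal. The notes also name Bowtie2 2.4.1, MACS2 2.2.7.1, DESeq2 1.26.0 and GRCm38. Caller settings, the control used and the way transcripts were summed to genes are not given in the sources used here. Depth behind the peaks is unknown.

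Regions were built from each library's own list with an overlap of at least 1 base. Gene starts came from a RefSeq promoter table (27025 genes, 32851 starts, GRCm38.p6) and gene spans from a RefSeq gene table. No genome was used, so sequence was read at tabulated promoters only. Of 55385 RNA identifiers, 55144 had a symbol. edgeR 4.0.16 (TMM, filterByExpr, quasi-likelihood test) was fitted to all 10 RNA libraries at once, with Benjamini-Hochberg adjustment over 17789 genes and a threshold of 0.05. CPM are TMM scaled, SE come from the fold change and its F statistic, and the script was tested on simulated data. A fold against a group without counts uses a floor of 3 counts, and one against 1 to 3 counts has a 95% exact interval; both cover counting error only. Where leaving out 1 library moved a fold by over 1.5 times, levels are given without a fold. Exceptions are Tdgf1 and Ttll6, given with the range of the log2 difference, and Ttll6 also with its ratio.

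The regions, the 17 gene lists, the tests and the naming rule were chosen with earlier results of these data known. The rule named the 12 regions with the highest enrichment in the weaker replicate, the 6 such open regions at least 10000 bases from a start, the 3 widest, per comparison the 5 largest rises and 5 largest falls among called start genes (at least 2-fold, at least 5 CPM, groups that do not overlap, no predicted or mitochondrial genes or pseudogenes), the 6 genes that held most regions (1 of them is not reported here) and up to 4 called holders per list. A text selection of these is printed. Genes holding several regions and the width range of 200 to 500 bases were added after seeing the data. Other settings tried were DESeq2 1.42.0, other size factors, no low-count filter, each library left out, a replicate block, other peak thresholds and other start windows.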

Additional observations from a re-analysis of the deposited data

How the results depend on the processing

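Only the peaks of both replicates count in the rule. When an H3K9cr or H3K18la peak of either replicate removed a region, 1747 regions were left, with 7.04% at a gene start, 4.46% open, 15.5%, 12.1% and 11.6% with H3K9ac, H3K9cr and H3K18la in DMSO and 62.6%, 51.5% and 5.21% with MS-275. Genes holding at least 2 regions were then 101 higher and 28 lower at day 4, 54 and 47 at day 8, and 51 and 74 with MS-275. How many such genes were tested in this setting is not given here, so these counts cannot be set beside the shares of all tested genes. Start genes higher and lower were 5 and 8 at day 4, 6 and 0 at day 8 and 15 and 0 with MS-275. Those counts of 0 are edgeR's among 23 start genes tested, with 1 gene at day 8 and 0 with MS-275 lower at an unadjusted p under 0.05, and DESeq2 called 0 in both. A −log10 q of at least 5 gave 9.52% at a start, 15.0% with H3K18la in DMSO and 61.6%, 51.6% and 4.82% for the marks with MS-275. Dropping shared intervals under 200 bases gave 6.50% open and 22.5%, 17.7% and 17.9% in DMSO. The share at a start was 15.0% with windows of 2500 bases, 6.06% for protein coding genes and 13.9% for either gene end, added after seeing the data.

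With each library left out in turn, the regions numbered 3749 to 7857 (7857 without H3K9ac replicate 2), 7.55% to 9.30% lay at a start and 4.92% to 14.3% were open, the last on ATAC-seq replicate 1 alone. The DMSO shares ran from 16.5% to 21.4%, 13.2% to 16.9% and 14.8% to 16.4%, and those with MS-275 from 61.7% to 66.9%, 51.9% to 56.5% and 7.02% to 8.22%. Start genes lower at day 8 ran from 5 to 8 (5 without day 8 replicate 1). Replicate numbers correlated between −0.0306 and 0.0378 and did not pair the libraries; with a replicate block 27 start genes were higher and 36 lower at day 4, 29 and 8 at day 8 and 54 and 11 with MS-275.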
